A study of Mus musculus with 8 samples.

Results

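Long noncoding RNAs of fibroblasts were followed as 9 genes chosen by name, Neat1, Malat1, Meg3, Rian, Mirg, Tug1, Pvt1, Miat and Dleu2, out of 30419 gene names in a table of read counts. All 9 names were in the table, and 5 of them (Malat1, Meg3, Mirg, Tug1 and Dleu2) had enough reads to be tested. RNA was sequenced from early passage mouse embryonic fibroblasts, primary connective tissue cells grown from E13.5 embryos, in 8 libraries. WT cells carried the normal Dino locus (Dino+/+), and mutant cells carried lox sites at both copies of Dino (Dino lox/lox). Dino, next to Cdkn1a, makes a long noncoding RNA that p53 switches on. Cells of each genotype, 300000 at a time, were kept for 8 h with vehicle (control) or with doxorubicin at 0.2 µg/mL, which breaks DNA by trapping topoisomerase II. Each of the 4 groups had n = 2 libraries, lettered A and B. The labels name no Cre recombinase and do not say how many embryos gave the cells or whether the 2 libraries of a group came from separate cultures, so p-values may measure technical spread only. Dino itself was not analysed here.

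Long noncoding RNAs are long transcripts that encode no known protein, and many act in the nucleus. Malat1 lies in nuclear speckles, where splicing factors gather, and its neighbour Neat1 is the scaffold on which paraspeckles, another nuclear body, are built. Meg3, Rian and Mirg are read in series from the maternal chromosome of the imprinted Dlk1-Dio3 domain, and Rian and Mirg carry small RNAs inside them (snoRNAs in Rian, microRNAs mainly in Mirg). Dleu2 is the host of miR-15a and miR-16, which restrain the cell cycle. Pvt1 lies beside the Myc gene, Tug1 is a broadly made RNA first found in the retina, and Miat is best known from heart and neurons.

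By RefSeq coordinates on GRCm38.p6, 17 microRNA genes lay inside the 9 genes on the same strand: 10 in Mirg, 3 in Rian, 2 in Meg3 and 2 in Dleu2. They give 32 mature sequences with 30 different seeds, the bases at positions 2 to 8 that pair with a target. The 2 seeds that occurred more than once are shown, since they tie microRNAs of 1 host together, and the other sequences stand for Meg3 and for the 3' arm of a Mirg hairpin. Capitals mark the seed. The first pair lies in Dleu2, at chr14:61632075-61632096 and chr14:61631936-61631957 on the minus strand, and shares the seed AGCAGCA.
mmu-miR-15a-5p: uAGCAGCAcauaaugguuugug
mmu-miR-16-5p: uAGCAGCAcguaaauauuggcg
The second pair lies in Mirg, at chr12:109735669-109735692 and chr12:109739132-109739152 on the plus strand, and shares the seed GGUUGCC.
mmu-miR-453: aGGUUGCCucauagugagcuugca
mmu-miR-496a-5p: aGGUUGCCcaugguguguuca
The next sequence is from Mirg (chr12:109743764-109743784), and the last 2 are from Meg3 (chr12:109563710-109563731 and chr12:109544588-109544609), all on the plus strand.
mmu-miR-410-3p: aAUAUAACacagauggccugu
mmu-miR-770-5p: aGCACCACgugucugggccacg
mmu-miR-1906: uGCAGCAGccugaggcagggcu
Of the 17 microRNA genes, 16 had a row of their own in the count table, and 3 of these rows had a count, with 4 counts over all 8 libraries. The mature microRNAs were therefore not measured. Of their hosts, Rian was at 0 in every library and Mirg had at most 25 counts in a library.

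RefSeq start sites gave windows of 300 bases (250 before to 50 after the start) for 7 of the 9 genes, with 2 windows for Meg3. Shown are Meg3, Tug1 and Mirg, since Meg3 and Tug1 were called lower with doxorubicin and Mirg belongs to the same imprinted series as Meg3. The motifs searched, on both strands, were the p53 consensus half-site, by name, the E-box CACGTG, the cAMP response element TGACGTCA, TATAAA and CCAAT. Capitals mark matches.
Meg3, chr12:109540746-109541045, plus strand: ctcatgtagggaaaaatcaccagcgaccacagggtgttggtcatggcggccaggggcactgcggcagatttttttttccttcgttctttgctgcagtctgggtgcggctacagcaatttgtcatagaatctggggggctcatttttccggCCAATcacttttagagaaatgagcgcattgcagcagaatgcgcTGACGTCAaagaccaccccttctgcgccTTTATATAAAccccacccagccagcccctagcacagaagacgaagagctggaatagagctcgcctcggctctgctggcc
Tug1, chr11:3648765-3649064, minus strand: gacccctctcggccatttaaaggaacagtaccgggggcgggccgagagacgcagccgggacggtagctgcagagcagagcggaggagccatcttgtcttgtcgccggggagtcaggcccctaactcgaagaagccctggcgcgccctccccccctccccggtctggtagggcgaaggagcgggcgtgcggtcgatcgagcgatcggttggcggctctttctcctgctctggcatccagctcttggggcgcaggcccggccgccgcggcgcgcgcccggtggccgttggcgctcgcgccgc
Mirg, chr12:109734731-109735030, plus strand: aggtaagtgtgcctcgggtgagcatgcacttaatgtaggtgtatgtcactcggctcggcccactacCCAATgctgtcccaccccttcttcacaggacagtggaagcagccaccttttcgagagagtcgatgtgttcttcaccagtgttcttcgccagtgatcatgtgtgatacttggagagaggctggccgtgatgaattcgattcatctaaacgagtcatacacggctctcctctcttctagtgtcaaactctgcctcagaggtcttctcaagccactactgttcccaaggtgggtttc
This Meg3 window held 1 cAMP response element, 1 CCAAT and 2 TATAAA matches, the last on opposite strands and overlapping. The Mirg window held 1 CCAAT, and the Tug1 window none of the 5 motifs. The Tug1 window was richer in G and C (71.3%, with 37 CpG dinucleotides) than the Meg3 window (53.7%, 13 CpG), where the median of 32817 RefSeq promoter windows was 52.7% and 7 CpG. Of all those windows, 1.79% held the cAMP response element, 13.6% TATAAA, 37.4% CCAAT, 7.15% the E-box and 8.36% a p53 consensus half-site. None of the 8 windows of the 9 genes held a p53 consensus half-site. These matches describe the letters of the windows and were not tested as binding sites.

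Total counts ran from 25482805 to 33285171 per library. The table was sparse for long noncoding RNAs: of 1536 rows that RefSeq classes as such, 658 (42.8%) were at 0 in every library, against 4202 of 18917 rows of protein-coding genes (22.2%). A low count in this table was not read as absence, since Gapdh, an abundant glycolytic enzyme chosen after its values were seen, had 11 to 25 counts per library. Levels are given below as CPM (counts scaled to library size with edgeR's TMM factors), and are compared between libraries, never between genes. The fibroblast markers were all tested, with a summed level of 3831 to 4672 CPM per library. The summed level of 10 neural markers (5 tested), led by Map2 and Elavl4, was 34.0 to 34.2 CPM in WT control and 65.0 to 66.9 in mutant control, and 26.4 to 28.4 and 48.2 to 48.3 with doxorubicin. The 5 endothelial markers (3 tested, Tie1 at 0) summed to 1.34 to 2.96 CPM in the control libraries and 5.68 to 11.1 with doxorubicin. Macrophage and leukocyte markers (6 of 8 tested) summed to 20.2 to 27.8 CPM in the control libraries and 28.8 to 34.5 with doxorubicin. Epithelial and skeletal muscle markers stayed at or below 0.813 and 0.282 CPM, with Myh3 at 0. The part of these cell types in the results below was not tested. In a bulk sample, fewer cells of a type and less RNA per cell cannot be told apart. The 2 libraries of WT with doxorubicin differed more from each other (scatter over genes, as chi-square divided by its degrees of freedom, of 17.3) than those of the other groups (5.34 to 6.09).

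With doxorubicin, Meg3 and Tug1 fell in both genotypes (changes of -22.9% to -19.2%). Malat1 and Dleu2 passed the test in neither genotype. Neat1, Rian, Pvt1 and Miat had too few counts to be tested. Calls were made at an adjusted p below 0.05 (edgeR's quasi-likelihood test, Benjamini-Hochberg over 12255 genes). In WT cells 3 of the 5 tested RNAs were called, all lower, where 57.4% of all tested genes were called, 29.3% higher and 28.1% lower. In mutant cells 2 of 5 were called, both lower, where 54.2% of tested genes were called, 28.3% higher and 25.9% lower. The median log2 fold change of the 5 was -0.31 in WT and -0.35 in mutant cells, against 0.01 in both over all genes. Mirg, with at most 25 counts in a library, is the third RNA called in WT cells. It passed the minimum count only through its control libraries, so its selection favoured a lower treated value. Its call is therefore no evidence of a fall, its values are given below as a description, and nothing is read from a count or median that holds it.

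**Figure D1:**
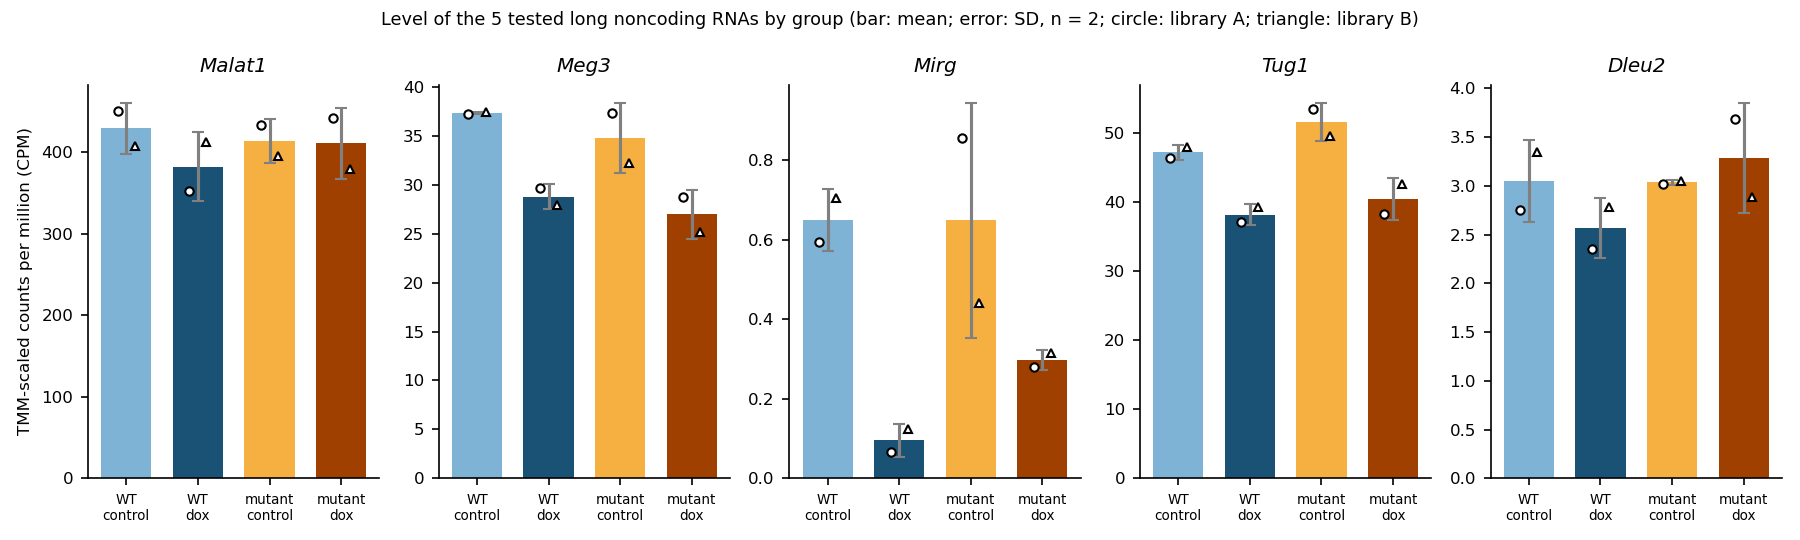
Level of each tested long noncoding RNA in the 8 libraries, in TMM-scaled CPM (vertical axes, each starting at 0), by group (horizontal axis); bars are the mean and error lines the SD of n = 2, circles are library A and triangles library B. The 4 treated libraries of Meg3, Tug1 and Mirg lie below their 4 control libraries, while those of Malat1 and Dleu2 overlap.

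Meg3, an imprinted RNA that has been linked to p53 activity and growth restraint, stood at 37.2 and 37.4 CPM in WT control libraries A and B, and at 29.7 and 27.9 with doxorubicin. In mutant cells it stood at 37.3 and 32.3 CPM without and 28.7 and 25.2 with the drug. All 4 treated libraries lay below all 4 controls, which 27.5% of all tested genes also did. The group means fell from 37.3 ± 0.132 to 28.8 ± 1.29 CPM in WT and from 34.8 ± 3.55 to 27.0 ± 2.48 in mutant cells (SD, n = 2). The log2 fold change was -0.37 ± 0.09 (SE) in WT cells (adjusted p = 0.00165) and -0.37 ± 0.10 in mutant cells (adjusted p = 0.00257), a change of -22.9% and -22.4%. The mutant call was lost without mutant control A (-0.26, adjusted p = 0.0725) or mutant doxorubicin B (-0.27, adjusted p = 0.0572). The group means were highest in WT control, then mutant control, then WT doxorubicin, then mutant doxorubicin.

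Tug1, a broadly made RNA with part of its pool in the cytoplasm, stood at 46.4 and 48.0 CPM in WT control and at 37.0 and 39.2 with doxorubicin. In mutant cells it stood at 53.4 and 49.6 CPM without and 38.3 and 42.5 with the drug. Again all 4 treated libraries lay below all 4 controls. The log2 fold change was -0.31 ± 0.08 in WT cells (adjusted p = 0.00349) and -0.35 ± 0.08 in mutant cells (adjusted p = 0.00131), a change of -19.2% and -21.5%. Mutant control (51.5 ± 2.73 CPM) stood highest, then WT control (47.2 ± 1.12), then mutant doxorubicin (40.4 ± 3.00), which overlapped WT doxorubicin (38.1 ± 1.57).

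Mirg, the microRNA host at the far end of the Dlk1-Dio3 series, had 16 and 24 counts in WT control and 2 and 4 with doxorubicin. In mutant cells it had 25 and 13 counts without and 7 and 8 with the drug. Scaled to library size, the summed WT counts of 40 and 6 gave a treated to control ratio of 0.147. The mutant counts of 38 and 15 gave a ratio of 0.460. No interval is given for these ratios, because of how Mirg passed the minimum count. On the CPM scale the controls ran from 0.441 to 0.858 and the treated libraries from 0.0662 to 0.316, without overlap. The fitted log2 fold change was -2.71 ± 0.59 in WT cells and -1.11 ± 0.50 in mutant cells, given as a description because only the control libraries brought Mirg past the minimum count. With 1 library left out, the mutant value ran from -1.51 (without mutant control B) to -0.56 (without mutant control A). Treated mutant libraries stood at 0.280 and 0.316 CPM, and treated WT libraries at 0.0662 and 0.125.

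**Figure D2:**
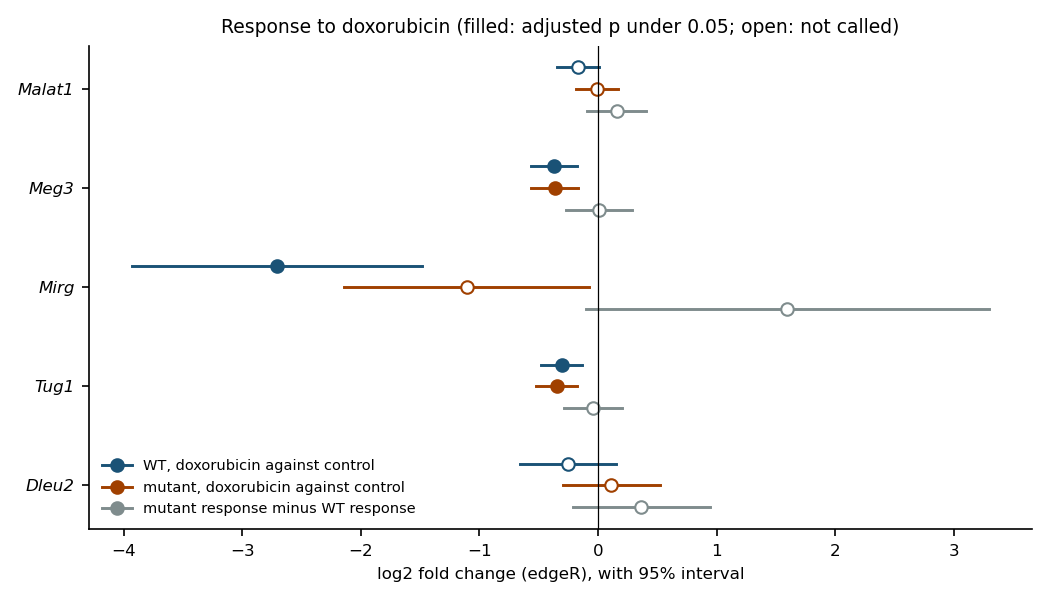
Log2 fold change of each tested long noncoding RNA with doxorubicin (horizontal axis), in WT cells, in mutant cells and as the mutant minus the WT response, with 95% intervals from edgeR; filled points were called. The responses of Meg3 and Tug1 lie below 0 in both genotypes, those of Malat1 and Dleu2 have intervals that include 0, the intervals of Mirg are the widest of the 5, and each difference between the responses has an interval that includes 0.

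Malat1, the nuclear speckle RNA, stood at 451 and 408 CPM in WT control and at 353 and 413 with doxorubicin. In mutant cells it stood at 433 and 395 CPM without and 442 and 380 with the drug. The 4 groups overlapped with their neighbours in the order of means, from 429 ± 30.9 CPM in WT control to 383 ± 42.3 in WT doxorubicin. The log2 fold change was -0.17 ± 0.08 in WT cells (95% interval -0.34 to 0.01, adjusted p = 0.0999) and -0.01 ± 0.08 in mutant cells (-0.19 to 0.17, adjusted p = 0.927). With 1 library left out, the WT value ran from -0.29 (without WT doxorubicin B, adjusted p = 0.00903) to -0.06 (without WT doxorubicin A, adjusted p = 0.631).

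Dleu2, host of the miR-15a and miR-16 sequences above, had 71 to 114 counts per library, and its precision was correspondingly lower. It stood at 2.75 and 3.35 CPM in WT control and 2.35 and 2.79 with doxorubicin, and in mutant cells at 3.02 and 3.05 without and 3.68 and 2.89 with it. Treated and control libraries overlapped in both genotypes. The log2 fold change was -0.25 ± 0.20 in WT cells (95% interval -0.66 to 0.15, adjusted p = 0.280) and 0.11 ± 0.20 in mutant cells (-0.29 to 0.52, adjusted p = 0.653).

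The 4 untested RNAs differed from one another in how few reads they had. Neat1 and Rian were listed at 0 in all 8 libraries. Pvt1 had 1 count in WT control A and 1 in WT doxorubicin A. Miat had 3 counts in WT control B, 3 in WT doxorubicin B and 1 in mutant control B. With 0 reads seen, a true level of up to 3 reads per library is possible, which is 0.0880 to 0.120 CPM by counting error alone. No fold change is given for these 4 genes, and a difference between groups was not detectable at these counts. In the table, 5598 rows carried a UCSC transcript identifier in place of a symbol and took 11.2% to 15.9% of a library's counts; whether reads of these 4 genes were counted there was not tested.

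**Figure D3:**
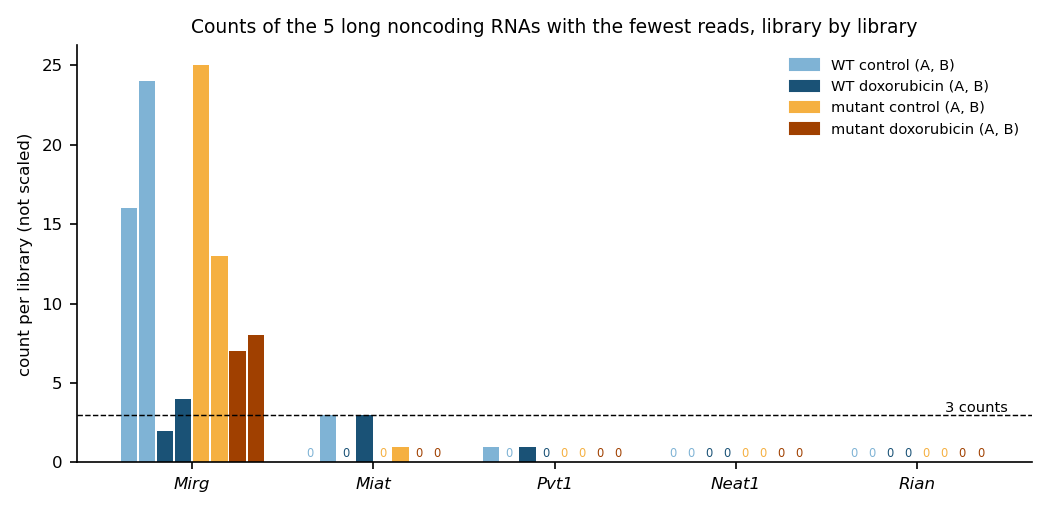
Unscaled counts per library (vertical axis, starting at 0) of the 5 long noncoding RNAs with the fewest reads, with libraries A and B of the 4 groups side by side, a digit 0 where the count is 0, and a dashed line at 3 counts. Mirg rises above the line in 7 of 8 libraries, Miat and Pvt1 never do, and Neat1 and Rian have no counts.

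None of the 5 tested RNAs was called in a comparison of the genotypes. The difference between the responses (mutant minus WT, log2) was called for 0 of 5, where 0.0734% of all tested genes were called. It was 0.01 ± 0.13 for Meg3 (95% interval -0.27 to 0.29), -0.04 ± 0.12 for Tug1 (-0.29 to 0.20), 0.16 ± 0.12 for Malat1 (-0.09 to 0.41) and 0.37 ± 0.28 for Dleu2 (-0.21 to 0.94). For Mirg it was 1.60 ± 0.82 (-0.10 to 3.30, adjusted p = 0.905), so the WT and mutant values were not shown to differ. Without doxorubicin, 0 of 5 differed between mutant and WT cells (5.92% of all genes called), with log2 values from -0.10 (Meg3) to 0.13 (Tug1). With doxorubicin, 0 of 5 differed (7.74% of all genes called). Mirg was the farthest apart, at 1.59 ± 0.70 (95% interval 0.13 to 3.05, adjusted p = 0.209). Its treated libraries had 2 to 8 counts, below the minimum count, so this value is a description and nothing is read from it. At an unadjusted p under 0.05 the numbers of RNAs passing were 0, 0 and 1 (Mirg), and DESeq2 also called 0 in each. A missed threshold does not show that the genotypes were alike, and the intervals give the sizes that remain possible.

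Among the chromosomal neighbours of these RNAs, Myc and Morc2a fell and Frmd8 rose in both genotypes. Of 14 genes that lie beside or across one of the 9, 9 were tested, and 3 were called in WT cells (1 higher, 2 lower) and 4 in mutant cells (2 higher, 2 lower), where 57.4% and 54.2% of all tested genes were called. The median log2 fold change of the 9 was 0.22 in WT and 0.04 in mutant cells, against 0.01 in both over all genes. Myc, the transcription factor gene beside Pvt1, fell from 33.1 ± 0.311 to 8.97 ± 1.87 CPM in WT and from 38.7 ± 0.356 to 11.3 ± 1.50 in mutant cells (log2 -1.88 ± 0.12 and -1.78 ± 0.12). Pvt1 itself, with 2 counts in all, has no value to set beside it. Frmd8, a gene near Neat1 and Malat1 whose protein binds the iRhom proteins, rose from 9.57 ± 0.0804 to 29.3 ± 1.47 CPM in WT and from 11.0 ± 1.35 to 32.5 ± 5.18 in mutant cells (1.61 ± 0.12 and 1.56 ± 0.12). Ltbp3, whose protein binds latent TGF-beta, was not called in either genotype (log2 0.23 and 0.17).

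Tug1 and Morc2a, which encodes a chromatin ATPase, start head to head on opposite strands and share exon bases in the GENCODE annotation. Morc2a fell from 4.85 ± 0.389 to 2.52 ± 0.104 CPM in WT and from 5.24 ± 0.407 to 2.45 ± 0.0633 in mutant cells, a log2 fold change of -0.94 ± 0.17 and -1.10 ± 0.17. Both genes were called lower in both genotypes. The strand setting of the counting is not given in the sources used here, so reads of the shared bases cannot be told apart. Within Dleu2 and on the other strand, Kcnrg, a regulator of potassium channels, rose in mutant cells (1.16 ± 0.38, adjusted p = 0.0137) and was not called in WT cells (0.70 ± 0.40, adjusted p = 0.142). The mutant call for Kcnrg was lost with DESeq2 (adjusted p = 0.118), without mutant control A (0.0841) and without mutant doxorubicin B (0.0831), and the difference between the responses was not called (0.46 ± 0.56). Trim13, a ubiquitin ligase gene in the same place, was not called (0.22 ± 0.15 and -0.22 ± 0.16).

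In the Dlk1-Dio3 domain, the maternal RNA Meg3 was called lower in both genotypes. The protein-coding Dlk1, read from the paternal chromosome, was called in neither genotype. The mutant call for Meg3 was lost without mutant control A or mutant doxorubicin B, and Meg3 and Dlk1 were not tested against each other. Dlk1 stood at 12.2 ± 0.168 and 12.8 ± 1.03 CPM in WT cells without and with doxorubicin (log2 0.07 ± 0.12), and at 10.5 ± 0.971 and 10.8 ± 1.19 in mutant cells (0.04 ± 0.12). Begain, next to Dlk1, had 3 to 15 counts per library and was not called (1.25 ± 0.62 and -0.93 ± 0.72). Rtl1 and Dio3 of the same domain, and Dleu7 near Dleu2, had at most 4 counts in a library and were not tested. Cryba4 and Crybb1, lens crystallin genes beside Miat, were at 0 in every library.

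**Figure D4:**
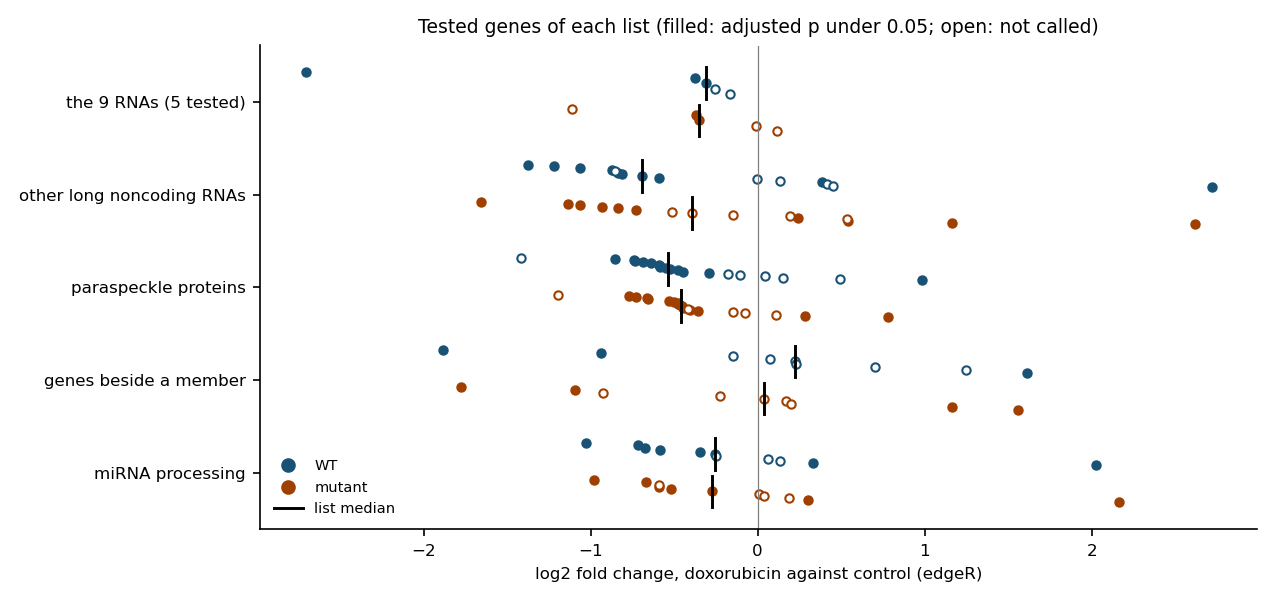
Log2 fold change with doxorubicin (horizontal axis) of the tested genes of 5 lists (rows), in WT and mutant cells; filled points were called at an adjusted p under 0.05, open points were not, and black bars are the list medians. Paraspeckle proteins lie mostly below 0 in both genotypes, while genes beside a member spread to both sides.

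Other long noncoding RNAs were read from a list of 50 names, of which 25 were in the table, 4 were at 0 and 15 were tested. Some absent names are second names of rows in the table: Norad of 2900097C17Rik, Carmn of Mir143hg and Oip5os1 of 1700020I14Rik. In WT cells 2 were called higher and 8 lower (median -0.69), where 29.3% of all tested genes were called higher and 28.1% lower. In mutant cells 4 were called higher and 6 lower (median -0.40), where the shares were 28.3% and 25.9%, and the median over all genes was 0.01 in both genotypes. DESeq2 called 6 of them in WT cells, in place of 10. Dnm3os, the host of miR-199a and miR-214, fell from 261 ± 23.6 to 112 ± 8.25 CPM in WT and from 303 ± 2.91 to 159 ± 1.96 in mutant cells (log2 -1.22 ± 0.08 and -0.93 ± 0.07). Mir17hg, the host of the growth-promoting miR-17 cluster, fell in both genotypes (log2 -1.38 ± 0.25 and -1.65 ± 0.25), as did Ftx of the X-inactivation centre (-1.06 ± 0.12 and -1.14 ± 0.12). A330023F24Rik, a host of the miR-29 family, had 1 to 6 counts per control library and 16 to 29 per treated library. It passed the minimum count only through the treated libraries, so its fitted log2 values of 2.72 ± 0.60 and 2.62 ± 0.62 are a description, as is its place among the genes called higher. Its WT value was 4.55 without WT control A and 1.80 without WT control B. Between genotypes, Dnm3os was higher in mutant cells with doxorubicin (0.50 ± 0.08, adjusted p = 0.000113), but the difference between the responses was not called (0.28 ± 0.11, adjusted p = 0.648). Xist, the RNA of the inactive X chromosome, was called higher in mutant cells with and without the drug, with 0.277 and 0.304 CPM in the WT groups and 233 and 522 CPM in the mutant groups. Whatever goes with this difference in Xist cannot be told apart from the Dino genotype in any comparison of the genotypes. Xist was also 1 of the 4 called higher with doxorubicin in mutant cells (log2 1.16 ± 0.09). It was not called in WT cells, where it had 7 to 12 counts per library.

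Transcripts of genes for proteins of the paraspeckle, the body that Neat1 scaffolds, were counted although Neat1 was listed at 0. All 20 listed genes were tested, and 13 fell in WT and 13 in mutant cells, with 1 and 2 higher. Over all tested genes 28.1% fell in WT and 25.9% in mutant cells, and 29.3% and 28.3% rose. The median log2 fold change of the 20 was -0.54 in WT and -0.46 in mutant cells, against 0.01 in both over all genes. Hnrnpa1, which was not called, had 2 to 13 counts per library and passed the minimum count only through control libraries. Its part in these medians is a description. Nono, a core paraspeckle protein that binds DNA and RNA, fell from 109 ± 0.126 to 60.3 ± 1.66 CPM in WT and from 103 ± 1.15 to 62.1 ± 1.69 in mutant cells (log2 -0.85 ± 0.07 and -0.73 ± 0.07). Rbm14 (-0.74 ± 0.07 and -0.66 ± 0.08) and Taf15 (-0.74 ± 0.13 and -0.77 ± 0.13), both RNA-binding proteins, fell as well. Sfpq, the partner of Nono, was not called (-0.11 ± 0.07 and -0.08 ± 0.07). Cirbp, the cold-inducible RNA-binding protein, rose (0.99 ± 0.18 and 0.78 ± 0.18). The mutant call for Cirbp was lost without mutant doxorubicin B (0.48, adjusted p = 0.0593). The difference between the responses was called for 0 of the 20, by edgeR and by DESeq2, with 0 at an unadjusted p under 0.05.

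The genes that turn hosts such as Mirg and Dleu2 into mature microRNAs moved in both directions. Of 16 names, 12 were in the table and 11 were tested. The 4 absent names, Eif2c1 to Eif2c4, are older symbols of Ago1 to Ago4, which were in the table. Called were 2 higher and 6 lower in WT cells (median -0.25) and 2 higher and 5 lower in mutant cells (median -0.27). Over all tested genes 57.4% and 54.2% were called, with a median of 0.01 in both genotypes. Ago4, an Argonaute protein that holds the mature microRNA, rose from 4.77 ± 1.19 to 19.2 ± 1.73 CPM in WT and from 3.43 ± 0.729 to 15.4 ± 1.43 in mutant cells (log2 2.03 ± 0.15 and 2.17 ± 0.16). Ago1, of the same family, fell (-0.68 ± 0.09 and -0.59 ± 0.09). Dgcr8, the RNA-binding partner of Drosha, fell as well (-0.71 ± 0.15 and -0.67 ± 0.16). Ddx17, a helicase of the Drosha complex, dropped from 114 ± 2.14 to 55.9 ± 5.63 CPM in WT and from 116 ± 1.43 to 58.5 ± 1.63 in mutant cells. The count called in WT cells was 5 in place of 8 without WT control A, WT control B or WT doxorubicin A, and in mutant cells 4 in place of 7 without mutant control A or mutant doxorubicin A.

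Profiles were compared as log2 CPM centred on each gene's mean, by their root mean square difference over the 8 libraries. Each RNA was set against 11972 genes, a description with no test. Meg3 lay nearest to Zzef1 (0.0402) and Cdc37l1 (0.0470), and Tug1 nearest to Cttnbp2nl (0.0324) and Ttc9c (0.0468), where the median over all genes was 0.364 and 0.353. Malat1 lay nearest to Polr2d (0.0582) and Nup43 (0.0606), and Dleu2 to Orc5 (0.0962) and Tiparp (0.105). For Mirg, with at most 25 counts in a library, the nearest were Kif11 (0.268) and Mki67 (0.301), farther off than for the other 4. The median over all genes was also larger for Mirg, at 0.942, against 0.339 for Malat1 and 0.367 for Dleu2. Among the RNAs themselves, Meg3 and Tug1 were 0.145 apart, as were Malat1 and Dleu2, and Mirg was 0.750 to 0.845 from each of the others. All profiles share the same libraries and the same treatment step.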

How the data were processed

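RNA of 8 libraries from mouse embryonic fibroblasts was sequenced from 50 ng of total RNA. The labels name both an exome-capture kit and 3' end sequencing, and which was used was not settled. The authors deposited raw counts per gene name, made with Bowtie2, HTSeq and mm9 per the submitters' processing notes; versions, annotation, strand setting and treatment of multiply matching reads are not given in the sources used here.

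The analysis used edgeR 4.0.16 on limma 3.58.1 in R 4.3.3. Low genes were removed by filterByExpr (count 10, total count 15), libraries were scaled by TMM, and the 8 libraries entered 1 quasi-likelihood model of the 4 group means, with 4 residual degrees of freedom. Two-sided tests were corrected over 12255 genes with the Benjamini-Hochberg method. SEs are the absolute log2 fold change over the root of F. Simulated counts, with known changes in a minority of genes of WT doxorubicin only and a common spread for all genes, served to check the code. They differ from these data and do not show how well the fit works here. The limit of 3 reads for a gene without reads describes counting alone, because reads can be copies of 1 molecule.

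The comparisons were the doxorubicin response in each genotype, their difference, and mutant against WT without and with doxorubicin. Alternatives were DESeq2 1.42.0, edgeR with DESeq2 size factors, no filter, the library letter as a block, a fit on the compared libraries alone, and dropping each library in turn. The 9 RNAs and the lists were chosen with earlier results of these data known. Every one of the 9 and its listed neighbours was to be named (some genes that the rule picks are left out of the text). Up to 4 called genes of each other list (largest WT change) and the 2 nearest profiles per tested RNA were also to be named. Gapdh, Hnrnpa1, Sfpq and Xist were named after their values were seen. Annotation came from GENCODE M21 and sequences from RefSeq (GRCm38.p6), matched by symbol, so no coordinate was joined to the mm9 counts.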

Additional observations from a re-analysis of the deposited data

How the results depend on the processing

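The calls for Meg3 and Tug1 in WT cells held under all 13 alternatives, with log2 values of -0.42 to -0.33 and -0.35 to -0.26, as did Tug1 in mutant cells (-0.43 to -0.27). With 1 library left out, the number of the 5 called in mutant cells ran from 1 to 3. The genes called over the whole table for the difference between the responses numbered 9, against 15 with DESeq2, 48 with no filter, 14 with the library letter as a replicate block and 0 to 51 with 1 library left out. Leaving out 1 library also moved the mutant against WT counts to 388 to 848 (726 in the full data) without and 530 to 1214 (949) with doxorubicin. The letters are not stated to pair the libraries. Deviations of same-lettered libraries correlated at -0.0249 to 0.0314 between groups, which does not settle whether they were paired. The block changed no call for the 9 RNAs. Every log2 value that changed sign was uncalled. In mutant cells, leaving out 1 library gave -0.12 to 0.10 for Malat1, -0.071 to 0.28 for Dleu2, -0.076 to 0.15 for Dlk1 and -1.65 to 0.61 for Begain, and in WT cells -0.016 to 0.15 for Dlk1. The difference between the responses ran from -0.094 to 0.11 for Meg3 (-0.011 with no filter) and from -0.13 to 0.026 for Tug1. Mutant against WT without doxorubicin ran from -0.12 to 0.019 for Malat1, -0.20 to 0.00019 for Meg3, -0.56 to 0.39 for Mirg (0.0015 with DESeq2 and 0.0012 with no filter) and -0.14 to 0.14 for Dleu2. With doxorubicin, Malat1 ran from -0.0094 to 0.23. Counts of called genes in the context lists changed by over 1.5 times between genotypes as well: with doxorubicin, without WT doxorubicin B, 3 paraspeckle genes, 2 microRNA processing genes and 1 neighbour were called in place of 0, and 1 paraspeckle gene with no filter or without mutant doxorubicin B. Without doxorubicin, other long noncoding RNAs called numbered 2 in place of 1 in 5 alternatives, with Dnm3os as the added gene. The causes were not tested. Neat1, Rian, Pvt1 and Miat had at most 3 counts in a library and no comparison.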
